A study of Homo sapiens with 48 samples.

Results

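The follistatin and SPARC family was examined in PSN1 cells, a human pancreatic cancer line, before and after selection for resistance to Talazoparib, an inhibitor of the PARP enzymes that take part in DNA repair. The family was taken as 10 genes of the 20241 in the deposited expression table: FSTL1, FSTL3, FSTL4, FSTL5, FST, SPARC, SPARCL1, SMOC1, SMOC2 and SPOCK1. The set was chosen by the excess of TalaR-M over TalaR-DF log2 values, which was greatest for FSTL1 in that table, so the values of FSTL1, and those of all members between TalaR-M and TalaR-DF cells, are given as a description with no test. Of the 10 members, 6 exceeded 1 CPM (reads of a gene scaled to the size of its library) in at least 1 library, 5 passed the filter on low values (above 1 CPM in at least 3 libraries), and 4 (FSTL4, FSTL5, SPARCL1 and SMOC2) were listed at 0 in all 9 libraries.

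Parental PSN1 cells carried the label WT and were untreated. TalaR-M cells had been selected in rising concentrations of Talazoparib and kept in 50 nM of it, with a labeled time of 4 months. TalaR-DF cells were resistant cells returned to medium free of the drug, for 4 weeks by the study's methods. The paper reports that after this time PSN1 cells responded to Talazoparib almost as parental cells did. Below, resistant names the origin of TalaR-M and TalaR-DF cells by selection, and not the drug response of TalaR-DF cells when sampled. All cells grew in RPMI1640 with 10% FBS, and whether the resistant cells descend from 1 clone is not stated in the sources used here. RNAseq of polyadenylated RNA was made for 3 libraries per group, which are 9 of the 48 samples of the series. Nothing states that the 3 libraries of a group came from separate cultures, so p-values measure the spread between these samples, which may be technical. Levels are log2 CPM, and a level of 0 stands for at most 1 CPM.

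The members share the follistatin-type domain, a small cysteine-rich module of secreted proteins. Follistatin (FST) and FSTL3 bind activins and related ligands of the TGF-beta family and keep them from their receptors. FSTL1 is a secreted glycoprotein that has been linked to BMP signaling and to the cell surface protein DIP2A. SPARC, SPARCL1, SMOC1, SMOC2 and SPOCK1 add a calcium-binding domain. SPARC, also called osteonectin, binds collagen, and in pancreatic cancer it is known mainly as a product of stromal fibroblasts. SMOC1 is known as a BMP antagonist, and SPOCK1 encodes the proteoglycan testican-1.

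A single library stood apart and touches several members. Its depth, counted as reads on genes above 1 CPM, was 8387755, against 12213605 to 14973847 in the other 8 libraries. Across 10512 genes, TalaR-M replicate 2 correlated with the other TalaR-M libraries at r = 0.78 at most, while replicates of a group otherwise reached at least 0.99. In TalaR-M replicate 2 the 10% of genes with the shortest transcripts lay a median of 1.38 log2 units above the mean of the other TalaR-M libraries, and the 10% with the longest lay at -1.45. Genes of the lowest GC content lay at -1.12 and those of the highest at 0.79. Each member is therefore given with and without this library.

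Markers of the labeled cell type and of other cell types were read beside the members. Of 8 epithelial carcinoma markers 7 were detected, with CDH1 at 0 in all libraries. Their summed level ran from 1199 to 1261 CPM in parental libraries, from 1782 to 5829 in TalaR-M libraries and from 1017 to 1153 in TalaR-DF libraries. The TalaR-M range includes replicate 2, which stood apart, and its low end of 1782 was that of replicate 1 or 3. Of 10 fibroblast markers 7 were detected, with THY1, FAP and ACTA2 at 0 throughout. Their sum, mostly from collagen genes, was 1795 to 1868 CPM in parental libraries, 1225 in TalaR-M replicate 2, at least 3350 and at most 3408 in TalaR-M replicates 1 and 3, and 912 to 1028 in TalaR-DF libraries. Endothelial markers (4 of 5 detected, VWF at 0) summed to 28.9 to 32.1 CPM in parental, 5.91 to 10.3 in TalaR-M and 2.92 to 3.24 in TalaR-DF libraries. Blood cell markers (2 of 5 detected, CD3E and HBB at 0) summed to 11.1 to 14.7, 4.14 to 7.11 and 1.18 to 2.55 CPM in the same order. In bulk RNA, fewer cells of a type cannot be told from less RNA per cell.

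FSTL1 lies on the minus strand of chromosome 3 (GRCh38, chr3:120392293-120451016), and its canonical GENCODE transcript has 11 exons and 5682 bases. The last exon also holds the precursor of miR-198, and the same transcript is known to yield either the FSTL1 protein or this microRNA. The mature miR-198 is shown because its sequence lies inside the FSTL1 transcript, with the seed (bases 2 to 8) in capitals. It was not measured by these libraries.
hsa-miR-198: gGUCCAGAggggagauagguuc
It maps to chr3:120395703-120395724 on the minus strand, within exon 11. A lncRNA and a pseudogene also overlap FSTL1, a lncRNA (CLMAT3) overlaps SPARC, and a ribosomal protein pseudogene lies within SMOC1. Libraries were stranded, but whether counting used the strand is not stated, so reads of such neighbors could have been added to these genes.

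Promoters are shown for the members whose level differed most between groups: FSTL1 and SPARC, highest in TalaR-M cells, and SMOC1, above 1 CPM in parental cells alone. Each is the 250 bases before the RefSeq start (GRCh38.p14), read on the strand of the gene. Capitals mark GGAGG and, in SMOC1, also CAGGTG and TATAA, each on either strand, with overlapping matches counted.
FSTL1: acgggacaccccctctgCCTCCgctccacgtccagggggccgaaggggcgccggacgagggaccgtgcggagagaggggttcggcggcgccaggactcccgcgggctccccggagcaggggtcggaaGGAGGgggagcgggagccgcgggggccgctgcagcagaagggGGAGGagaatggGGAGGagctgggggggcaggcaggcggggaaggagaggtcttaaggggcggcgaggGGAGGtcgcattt
SPARC: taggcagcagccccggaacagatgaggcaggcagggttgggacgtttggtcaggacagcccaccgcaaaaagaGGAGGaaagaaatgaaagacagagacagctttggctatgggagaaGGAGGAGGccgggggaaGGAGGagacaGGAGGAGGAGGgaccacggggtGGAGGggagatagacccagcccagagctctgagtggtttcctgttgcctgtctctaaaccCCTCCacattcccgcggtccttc
SMOC1: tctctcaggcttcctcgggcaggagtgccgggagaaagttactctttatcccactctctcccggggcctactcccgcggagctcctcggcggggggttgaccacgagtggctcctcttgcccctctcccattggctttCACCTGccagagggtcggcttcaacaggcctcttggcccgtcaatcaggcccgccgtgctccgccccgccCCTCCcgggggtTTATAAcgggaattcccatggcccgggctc
The FSTL1 window is chr3:120450993-120451242 on the minus strand, the SPARC window chr5:151686916-151687165 on the minus strand, and the SMOC1 window chr14:69879166-69879415 on the plus strand, inside the longer GENCODE gene model. The FSTL1 and SPARC windows overlap their GENCODE gene models in part, up to chr3:120451016 and chr5:151686975. The GGAGG matches nearest the RefSeq start, at 13 bases for FSTL1 and 23 for SPARC, lie inside these models. The motif GGAGG was chosen after these sequences were read. It occurred 5 times before FSTL1 and 9 times before SPARC, a known feature of the SPARC promoter, and once or not at all before SMOC1 and FSTL3 (1 and 0 matches). Of 27303 promoters 71.6% held it at least once, 8.24% held at least as many as FSTL1 and 1.07% at least as many as SPARC. SMOC2, at 0 in all libraries, held 7. CAGGTG, the E-box that SNAIL family proteins bind, occurred once before SMOC1 (112 bases before the start) and in neither the FSTL1 nor the SPARC window, against 17.5% of all promoters. It also occurred before FSTL4 (2 matches), at 0 in all libraries, and before FST (1 match). TATAA lay 30 bases before the SMOC1 start and 28 before that of FSTL3, and 19.6% of promoters held it. SPARCL1, at 0 in all libraries, held 3 matches. The AP-1 site TGANTCA (6.6% of promoters) and the SMAD-binding core CAGAC (37.8%) matched in none of the 3 printed windows. Of the 10 members 9 had a promoter entry.

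FSTL1 rose above its parental level in every TalaR-M library and was listed at 0 in every TalaR-DF library. It stood at 3.21, 3.17 and 3.29 log2 CPM in parental replicates 1, 2 and 3, from 124 to 135 reads each. In TalaR-M replicates 1, 2 and 3 it stood at 5.66, 4.48 and 5.48, from 794, 168 and 624 reads. In TalaR-DF replicates 1, 2 and 3 it was at 0, which allows at most 13, 12 and 11 reads. The 3 groups did not overlap, and the lowest TalaR-M value was that of replicate 2. Mean levels were 3.22 ± 0.06 in parental and 5.21 ± 0.63 in TalaR-M cells (SD, n = 3), a difference of 1.98 or 3.96-fold. Leaving out TalaR-M replicate 2 gave a TalaR-M mean of 5.57 and a difference of 2.35. Relative to TalaR-DF cells, FSTL1 was higher by at least 36.9-fold in TalaR-M (5.21 log2 units) and by at least 9.33-fold in parental cells. These are lower bounds at 1 CPM. The next genes in this ordering were COL1A1 at 4.65 log2 units and HLA-DRB5 at 4.47, the latter uncertain because of near-identical paralogs. With that library left out, FSTL1 led at 5.57, ahead of COL1A1 at 4.82. The order of FSTL1 levels, TalaR-M over parental over TalaR-DF, was also that of the summed fibroblast markers in TalaR-M replicates 1 and 3, but not in TalaR-M replicate 2, where FSTL1 was above and the marker sum below the parental values. Single markers were split. COL1A1 shared that order in every library (parental 6.45 to 6.55, TalaR-M 8.13 to 8.67, TalaR-DF 3.67 to 3.96 log2 CPM). DCN was above 1 CPM in TalaR-M libraries alone (1.45 to 1.73), and COL3A1 in TalaR-M cells overlapped its parental values. PDGFRA, PDGFRB, LUM and COL1A2 were lower in every TalaR-M library than in every parental library. LUM stood at 5.25 to 5.34 in parental and 0.95 to 2.42 log2 CPM in TalaR-M cells. The part of these marker levels in the FSTL1 values was not tested.

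**Figure D1:**
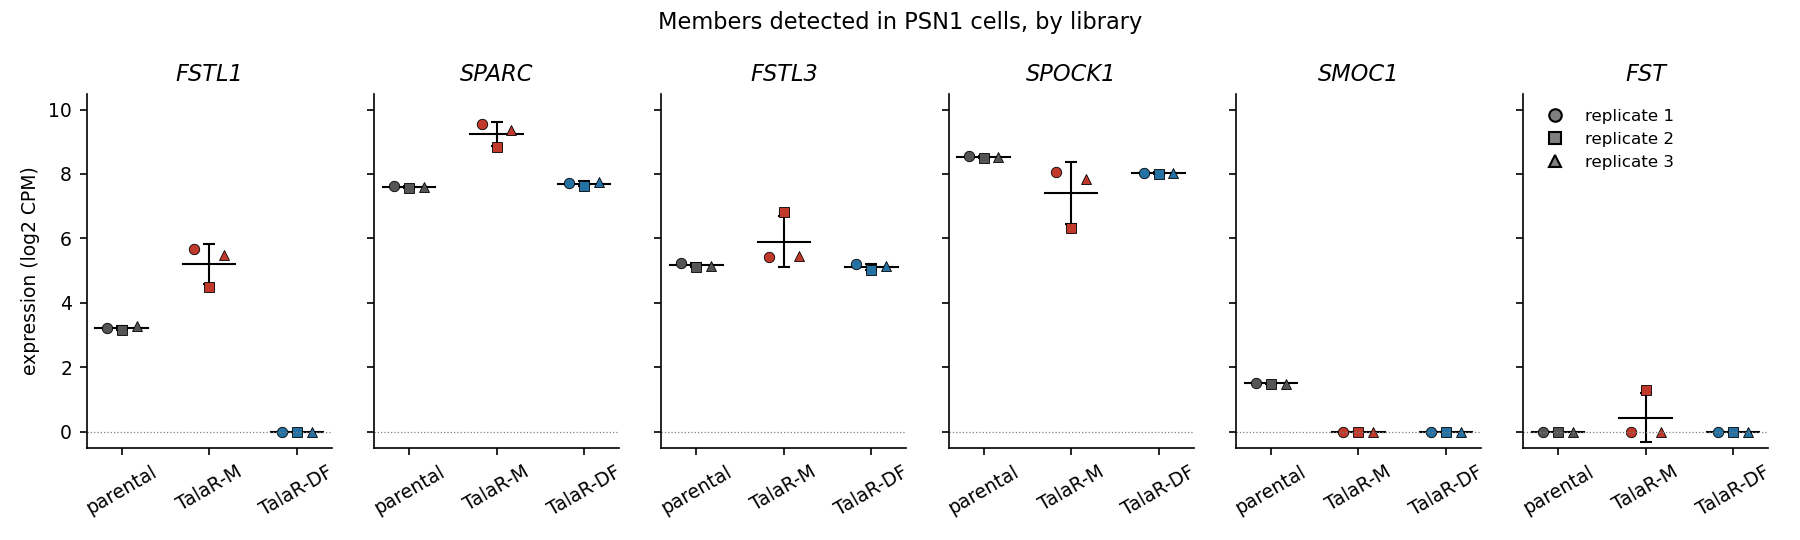
Expression (log2 CPM, vertical axis) of the 6 members detected in PSN1 cells, with 1 point per library, horizontal lines at the group mean and bars of 1 SD (n = 3). FSTL1 lies at 3.17 to 3.29 in parental, 4.48 to 5.66 in TalaR-M and 0 in TalaR-DF libraries, while SPARC is raised in TalaR-M cells only and the square of TalaR-M replicate 2 lies apart for FSTL3 and SPOCK1.

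SPARC rose in TalaR-M cells and was near its parental level in TalaR-DF cells. SPARC (chr5:151661096-151686975, minus strand) stood at 7.64, 7.58 and 7.60 log2 CPM in parental replicates 1, 2 and 3. It reached 9.56, 8.84 and 9.36 in TalaR-M replicates 1, 2 and 3, and 7.74, 7.62 and 7.74 in TalaR-DF replicates 1, 2 and 3. Each of these values rests on at least 2556 reads. All 3 TalaR-M values lay above every other library, whereas parental and TalaR-DF values overlapped. The level of SPARC in TalaR-M cells was 3.13-fold the parental level (log2 fold change 1.65, standard error 0.18, adjusted p = 0.000393 from limma). With TalaR-M replicate 2 left out, the change was 1.85 (adjusted p = 1.63e-09), and over all alternatives its adjusted p stayed at or below 0.00657. The change of SPARC from parental to TalaR-DF cells was 0.09, with a standard error of 0.18 and an adjusted p of 0.824 from limma. TalaR-M exceeded TalaR-DF by 1.55 log2 units, which is a description only. Genes were called where the adjusted p was under 0.05 and the change reached 2-fold. Among all 12471 genes tested, 13.3% were called between TalaR-M and parental cells (5.53% higher, 7.72% lower) and 9.73% between TalaR-DF and parental cells (2.25% higher, 7.49% lower), and the groups did not overlap for 49.8% and 68.5%. Of SPARC, FSTL3 and SPOCK1, the members whose filter did not fix the outcome, SPARC was called in TalaR-M and none in TalaR-DF cells. Between TalaR-M and TalaR-DF cells, where the members are only described, the groups did not overlap for 40.8% of genes.

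FSTL3, the activin-binding relative of follistatin (chr19:676392-683392, plus strand), did not pass the test in either resistant population. It stood at 5.25, 5.11 and 5.15 log2 CPM in parental replicates 1, 2 and 3, at 5.41, 6.82 and 5.47 in TalaR-M replicates 1, 2 and 3, and at 5.19, 5.02 and 5.15 in TalaR-DF replicates 1, 2 and 3. All TalaR-M values lay above the parental values, and replicate 2 lay 1.38 above the mean of the other TalaR-M libraries. FSTL3 in TalaR-M differed from parental cells by 0.73 on the log2 scale (standard error 0.34, adjusted p = 0.157 from limma). This was 0.27 without TalaR-M replicate 2 (adjusted p = 0.0131), short of 2-fold. In TalaR-DF cells it was -0.05 (standard error 0.34, adjusted p = 0.966). The FSTL3 transcript is the shortest (2501 bases) and most GC-rich (64.3%) of the 5 members that passed the filter. It is in the most GC-rich 10% of genes (from 61.7%) but not in the shortest 10% (up to 1397 bases). The part of length and GC content in the FSTL3 value of TalaR-M replicate 2 was not tested.

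SPOCK1 (chr5:136975298-137598379, minus strand) was the most abundant member in parental cells and lower in all 6 resistant libraries, without passing the test. It stood at 8.57, 8.51 and 8.54 log2 CPM in parental replicates 1, 2 and 3. In TalaR-M replicates 1, 2 and 3 it was at 8.06, 6.31 and 7.85, and in TalaR-DF replicates 1, 2 and 3 at 8.05, 7.99 and 8.03. Each resistant library lay below each parental library, and the value of TalaR-M replicate 2, from 599 reads, was 1.65 below the mean of the other TalaR-M libraries. For SPOCK1 in TalaR-M cells the log2 fold change was -1.13, with a standard error of 0.40 and an adjusted p of 0.0773 from limma. With TalaR-M replicate 2 left out it was -0.58 (adjusted p = 2.09e-05), a smaller change with a smaller spread that stayed under 2-fold. Without TalaR-M replicate 1 it was -1.46 and was called (adjusted p = 0.0348), as it was after median-ratio rescaling (-1.02, adjusted p = 0.0481). In TalaR-DF cells it was -0.52 (standard error 0.40, adjusted p = 0.477), and -0.52 with an adjusted p of 1.91e-05 once TalaR-M replicate 2 no longer entered the shared estimate of the spread. The SPOCK1 transcript has 4824 bases and 44.2% GC. It is in neither the longest 10% of genes (from 7827 bases) nor the most GC-poor 10% (up to 38.1%). The part of length and GC content in the SPOCK1 value of TalaR-M replicate 2 was not tested.

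**Figure D2:**
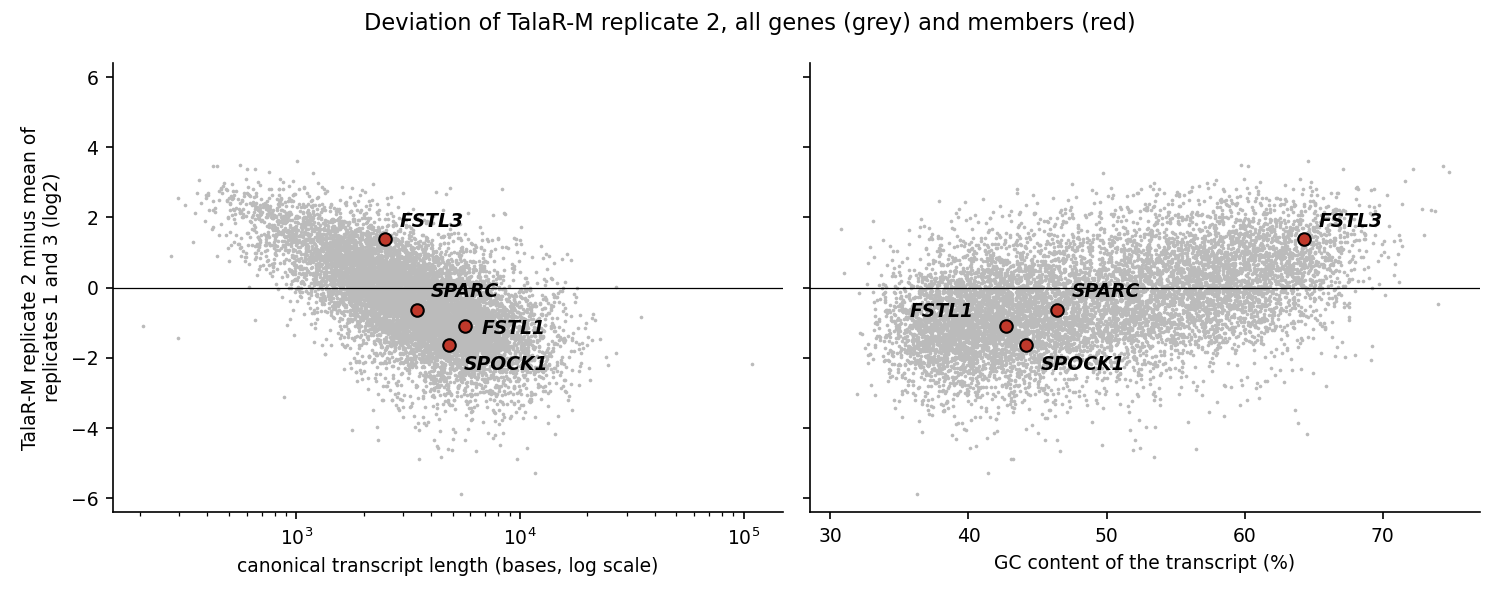
Deviation of TalaR-M replicate 2 from the mean of the other TalaR-M libraries (log2 units, vertical axis) against canonical transcript length in bases on a log axis (left) and GC content in percent (right), with 9879 genes in grey and 4 members in red. FSTL3 lies at 1.38, SPARC at -0.62, FSTL1 at -1.09 and SPOCK1 at -1.65, while grey points fall with length and climb with GC content.

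SMOC1 (chr14:69854131-70032366, plus strand) was detected only in parental cells. It stood at 1.52, 1.49 and 1.49 log2 CPM in parental replicates 1, 2 and 3, from 36 to 41 reads. It was listed at 0 in all 3 TalaR-M and all 3 TalaR-DF libraries, which allows at most 14 reads in any of them. The level of SMOC1 was thus at least 2.82-fold higher in parental than in either resistant population. SMOC1 passed the filter through its parental libraries alone, so it had to differ, and the spread of its resistant groups is cut off at 0. No test is given for it.

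FST was at 0 in 8 libraries and at 1.30 log2 CPM in TalaR-M replicate 2, from 18 reads. With a single library above 1 CPM, FST (chr5:53480626-53487134, plus strand) was not tested. FSTL4, FSTL5, SPARCL1 and SMOC2 were not detectable at this depth in any library. Per kilobase of canonical transcript, the order of levels in parental cells was SPOCK1 at 6.27 log2 CPM per kb, SPARC at 5.82, FSTL3 at 3.85, FSTL1 at 0.72 and SMOC1 at -0.38. The order changed in TalaR-M cells, with SPARC at 7.47 ahead of SPOCK1 at 5.14, FSTL3 at 4.58 and FSTL1 at 2.70. In TalaR-DF cells SPARC stood at 5.91 and SPOCK1 at 5.75, ahead of FSTL3 at 3.80.

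The members did not follow a single pattern over the 9 libraries. The correlation with FSTL1 was 0.76 for SPARC, 0.46 for FSTL3, 0.13 for SMOC1 and -0.20 for SPOCK1. Over the 8 libraries other than TalaR-M replicate 2 it was 0.74, 0.78, 0.22 and 0.13 in the same order. These values over 9 or 8 libraries in 3 groups are a description. Among 776 genes whose group means spanned at least 2 log2 units, the patterns most like that of FSTL1 were those of TMEM56 (r = 0.997), COL1A1 (0.996), LBH (0.996), PLEKHA6 (0.993) and PTGS1 (0.993). COL1A1 encodes a chain of type I collagen, LBH a transcription cofactor, and PTGS1 the cyclooxygenase COX-1. TMEM56 stood at 1.59 ± 0.06, 2.39 ± 0.25 and 0.05 ± 0.07 log2 CPM (SD, n = 3) in parental, TalaR-M and TalaR-DF cells. The same groups gave 6.50 ± 0.05, 8.47 ± 0.30 and 3.82 ± 0.15 for COL1A1, 4.31 ± 0.12, 5.73 ± 0.54 and 2.23 ± 0.20 for LBH, 2.67 ± 0.17, 3.55 ± 0.41 and 1.07 ± 0.12 for PLEKHA6, and 2.36 ± 0.17, 3.98 ± 0.32 and 0.24 ± 0.19 for PTGS1. In each of these genes TalaR-M replicate 2 was the lowest TalaR-M library, as for FSTL1. Without that library 4 of the 5 remained among the 5 most alike, and with Spearman's rank correlation 1 of the 5 did, where 10 genes tied at the limit.

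**Figure D3:**
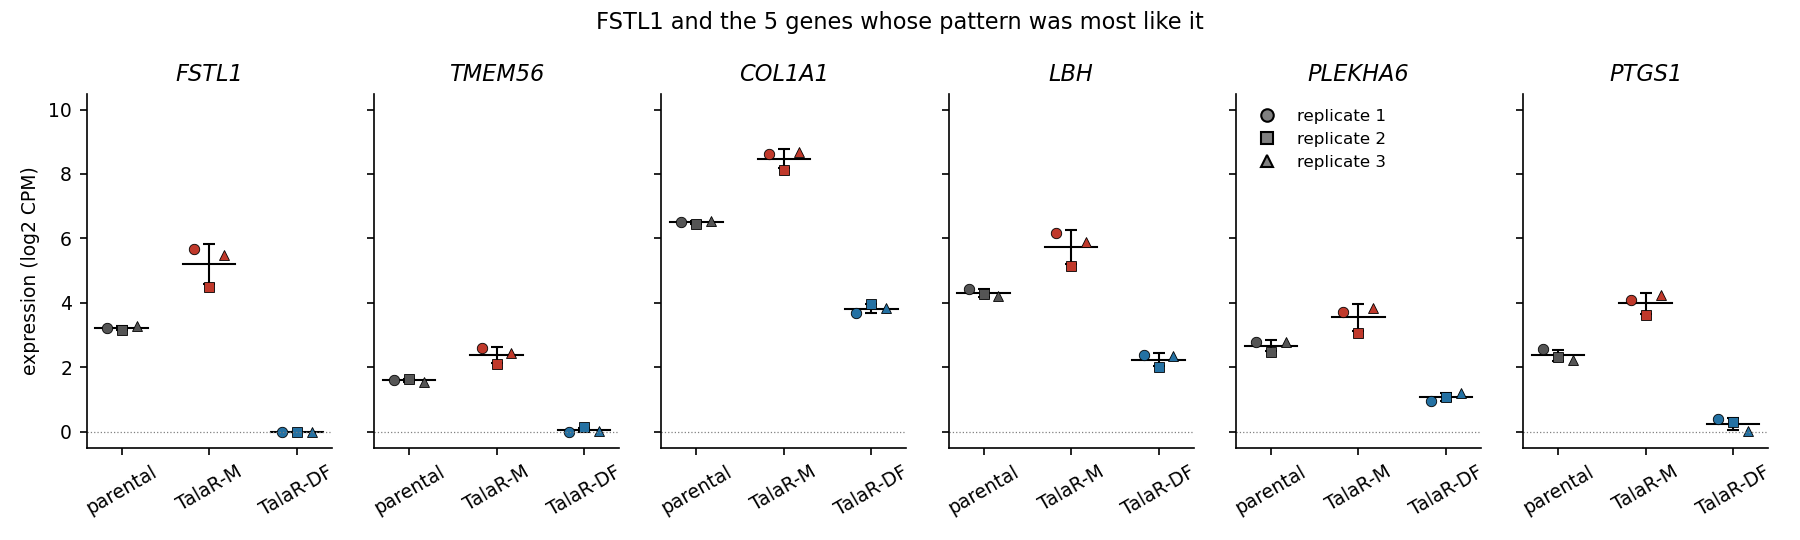
Expression (log2 CPM, vertical axis) of FSTL1 and of the 5 genes whose pattern over the 9 libraries was most like it, with 1 point per library, horizontal lines at the group mean and bars of 1 SD (n = 3). Every panel has its highest values in TalaR-M cells and its lowest in TalaR-DF cells, and of these genes COL1A1 spans the widest range after FSTL1, from 3.67 to 8.67.

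Genes of the pathways that the family acts on were read from 6 lists of 119 genes, of which 73 were tested. In TalaR-M cells 12 rose and 15 fell relative to parental cells, or 37.0% of those tested against 13.3% of all genes, with a median log2 fold change of -0.40 against -0.09. Without TalaR-M replicate 2, 17 rose and 16 fell (45.2% against 13.9% of all genes) and the median of the lists was -0.16 against 0.01. In TalaR-DF cells 5 rose and 15 fell (27.4% against 9.73%), with a median of -0.22 against 0.01. Without parental replicate 2 that count was 13. Between TalaR-M and TalaR-DF cells 15 were called, 11 higher and 4 lower (20.5% against 6.93%, of which 5.29% higher and 1.64% lower). These shares are counts over genes chosen with earlier results known. The counts of TalaR-M cells, over parental and over TalaR-DF cells, include BMPER and IGFBP7. These genes passed the filter through TalaR-M libraries alone, so their calls were fixed in advance.

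Among 12 tested ligands of the TGF-beta family (of 32 listed), BMP4 alone rose, by 4.52 in TalaR-M cells (adjusted p = 4.73e-06) and by 1.55 in TalaR-DF cells (adjusted p = 0.00256). Of these ligands 33.3% were called in TalaR-M and 33.3% in TalaR-DF cells, against 13.3% and 9.73% of all genes. INHBA, which encodes the subunit of activin A that FST and FSTL3 bind, stood at 4.76 log2 CPM in parental cells. It fell by 4.06 in TalaR-DF cells (adjusted p = 0.000401), and its value in TalaR-M cells was -1.30 (adjusted p = 0.0679). It was -0.71 without TalaR-M replicate 2, under 2-fold, and -1.65 and called without TalaR-M replicate 3 (adjusted p = 0.0362). TGFB1 and GDF15 fell in TalaR-M cells (-1.35 and -1.60), and BMP8B, uncertain because of its paralog BMP8A, fell in both (-2.11 and -1.61). The call of GDF15 was lost without any 1 parental library or without TalaR-M replicate 1 or 3 (adjusted p up to 0.0806). Without TalaR-M replicate 2 it was kept, at -2.14 (adjusted p = 4.56e-08 from limma). INHA, the inhibin alpha subunit, fell by 1.01 in TalaR-DF cells, and by under 1 without parental replicate 2 or TalaR-DF replicate 1 or 2 (-0.93, -0.99 and -0.88). In TalaR-M cells INHA was at -0.92, and at -1.04 and called without TalaR-M replicate 2, while TGFB1 in TalaR-DF cells was at -0.93, and was called without TalaR-DF replicate 1 (adjusted p = 0.00967).

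Among 12 tested receptors (of 17), BAMBI, a decoy receptor, rose by 2.11 in TalaR-M cells. Of these receptors 33.3% were called in TalaR-M cells, against 13.3% of all genes, and 8.33% in TalaR-DF cells, against 9.73%. ACVR1B and ACVR2B, receptors of activin, fell in TalaR-M cells (-1.28 and -1.06), but by under 2-fold without TalaR-M replicate 2 (-0.91 and -0.89), where 2 of 12 receptors were called in place of 4. ACVR1B was also lost without parental replicate 1 or 3 (adjusted p = 0.0552 and 0.0504). The co-receptor TGFBR3 fell in TalaR-M and TalaR-DF cells (-1.96 and -1.42), and the second call was lost without parental replicate 1 or 2 or TalaR-DF replicate 1 or 3 (adjusted p up to 0.0686). That second call was kept without TalaR-M replicate 2 (adjusted p = 0.00035 from limma). DIP2A, the reported FSTL1 partner, was at -0.71 in TalaR-M cells (adjusted p = 0.237), -0.16 without TalaR-M replicate 2, and 0.10 in TalaR-DF cells (adjusted p = 0.93).

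Of 16 tested SMADs and feedback targets (of 19), none rose and 3 fell in each resistant population. This was 18.8% called, against 13.3% of all genes in TalaR-M and 9.73% in TalaR-DF cells (7.72% and 7.49% called lower). PMEPA1, a target of TGF-beta, fell in both (-1.36 in TalaR-M and -1.99 in TalaR-DF cells). SMURF1, a ubiquitin ligase for SMADs, fell in TalaR-M cells (-1.17), but not in the fits without any 1 library other than TalaR-M replicate 1 or 3 (-0.72 without TalaR-M replicate 2, adjusted p up to 0.116 without the others). ID1, a target of BMP, fell in TalaR-DF cells (-2.06, adjusted p = 0.0139), a call lost without any 1 parental library or TalaR-DF replicate 2 or 3 (adjusted p up to 0.0631). In TalaR-M cells ID1 was at -0.85, and at -1.42 and called without TalaR-M replicate 2.

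Other secreted ligand inhibitors moved in both directions. NOG and BMPER, antagonists of BMPs, rose in TalaR-M cells by 3.24 and 2.90, from 0 in all parental libraries, and these are lower bounds. NOG stood at 2.93, 3.87 and 2.92 in TalaR-M replicates 1, 2 and 3, and BMPER, which passed the filter through TalaR-M alone and so had to differ, at 3.22, 2.24 and 3.24. LTBP1, which binds latent TGF-beta, and LTBP2, a matrix protein of the same family, fell in TalaR-M (-1.95 and -2.84) and in TalaR-DF cells (-1.72 and -1.59), and WFIKKN1, which binds myostatin, fell in TalaR-DF cells (-1.21). The TalaR-DF calls of these 3 genes were lost without any 1 parental or TalaR-DF library (adjusted p between 0.0524 and 0.135), and the TalaR-M call of LTBP1 without any 1 parental library (up to 0.0705). All of these calls were kept in the fit without TalaR-M replicate 2. There the TalaR-DF adjusted p from limma was 8.65e-10 for LTBP1, 1.07e-08 for LTBP2 and 2.63e-05 for WFIKKN1. Without TalaR-M replicate 2 the TalaR-M change of LTBP1 was -1.29. In all, 4 of 11 were called in TalaR-M cells (2 higher, 2 lower), 7 without TalaR-M replicate 2, among them WFIKKN1 at -1.45, and 3 lower in TalaR-DF cells. With all 9 libraries this was 36.4% in TalaR-M and 27.3% in TalaR-DF cells, against 13.3% and 9.73% of all genes.

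**Figure D4:**
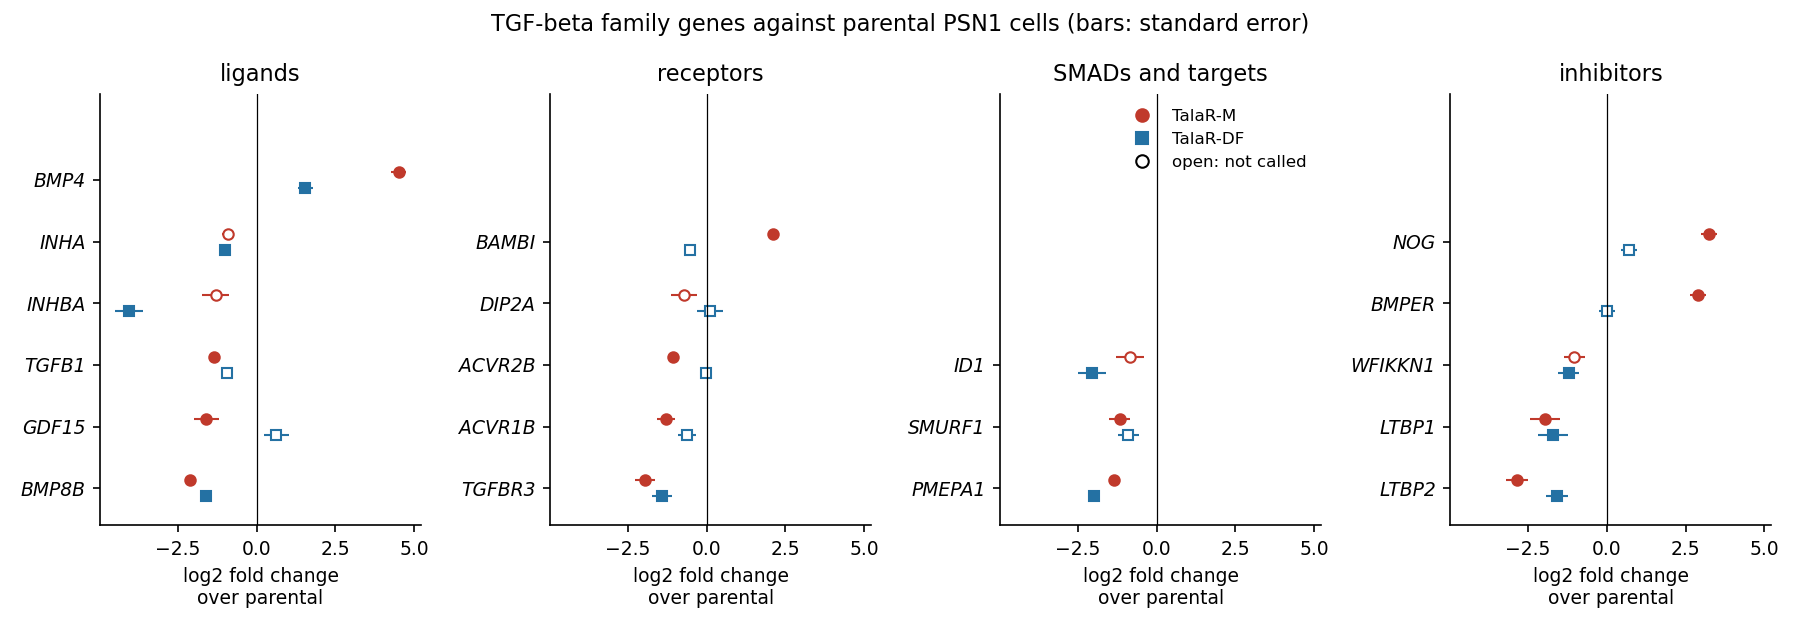
Log2 fold change over parental PSN1 cells (horizontal axis, bars of 1 standard error) of the named TGF-beta family ligands, receptors, SMADs and targets, and secreted inhibitors, for TalaR-M (circles) and TalaR-DF cells (squares), with filled symbols for genes called. BMP4, BAMBI, NOG and BMPER lie to the right in TalaR-M cells, and INHBA lies farthest to the left, at -4.06 in TalaR-DF cells.

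Other genes with a follistatin-type domain also split. Of 6 tested (of 11), 66.7% were called in TalaR-M and 33.3% in TalaR-DF cells, against 13.3% and 9.73% of all genes. The TalaR-M share includes IGFBP7, whose call was fixed in advance. The secreted proteases HTRA1 and HTRA3 fell in both resistant populations, with values of -2.11 and -1.14 in TalaR-M cells and -2.26 and -1.66 in TalaR-DF cells. HTRA3 kept its TalaR-M call only in the fit without TalaR-M replicate 2 among those without 1 library (adjusted p up to 0.107 in the others). KAZALD1 and IGFBP7 rose in TalaR-M cells by 1.87 and 1.43. IGFBP7 was at 0 in all parental and TalaR-DF libraries, so it passed the filter through TalaR-M alone and had to differ, and its value is a lower bound.

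Of 16 tested matricellular genes and collagen partners of SPARC (of 19), 6 rose and 2 fell in TalaR-M cells, and 4 rose and 3 fell in TalaR-DF cells. This was 50.0% and 43.8% called, against 13.3% and 9.73% of all genes. COL1A1 rose by 1.97 in TalaR-M cells (standard error 0.17, adjusted p = 8.04e-05) and fell by 2.68 in TalaR-DF cells (standard error 0.17, adjusted p = 1.78e-05). COL1A2, the partner chain in type I collagen, fell from 7.86 log2 CPM to 0 in all TalaR-M libraries, at least a 233-fold loss, and to 3.77 log2 CPM in TalaR-DF cells. THBS1 (thrombospondin-1) rose by 3.74 and 2.50 and CYR61 by 2.43 and 1.07 in TalaR-M and TalaR-DF cells, and SPP1 (osteopontin) fell (-3.14 and -2.47). POSTN (periostin) rose by 3.67 in TalaR-DF cells and stood at 0.49 in TalaR-M cells, and at 1.24 and called without TalaR-M replicate 2. Without TalaR-M replicate 2 the change of THBS1 in TalaR-M cells was 4.75. The TalaR-DF call of THBS1 was lost without any 1 parental or TalaR-DF library (adjusted p up to 0.132). That call was kept, at an unchanged 2.50, once TalaR-M replicate 2 no longer entered the fit (adjusted p = 2.62e-11 from limma). Without TalaR-M replicate 2, 12 of the 16 were called in TalaR-M cells.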

How the data were processed

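RNAseq values of 9 PSN1 libraries were analyzed. Other cell lines and short treatments were not analyzed here. The authors deposited log2 CPM (effective library size, prior count of 1, values under 0 set to 0), a unit read from the values. Reads were placed on hg38 per the submitters' processing notes, and the aligner, counter and annotation are not given in the sources used here. Whole reads, recovered for 100.0% of values under 50 CPM within 0.05 of a whole number, gave depth only, and 1 CPM is worth 7.54 to 15.7 reads. Intervals of counting error were not formed.

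The log2 values were fitted with limma 3.58.1 in R 4.3.3, with a mean-variance trend and 1 model of 3 groups, for 12471 genes above 1 CPM in at least 3 libraries. Fold changes are on the log2 CPM scale and no pseudocount was added. P-values are Benjamini-Hochberg adjusted over all genes. An exact permutation test of 3 against 3 libraries cannot go below 0.1 and was not used. The planned count-based alternative was not run, since reads at or below 1 CPM are lost.

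The members and gene lists were chosen with earlier results of these data known. Named genes were all members, the 5 genes most like FSTL1, up to 6 called genes per list with the greatest change, and DIP2A and INHBA. Some genes of the lists are counted but not reported here by name. The fit was tested on simulated data. Gene positions, lengths and GC content came from GENCODE 44, matched for 88.3% of symbols, and sequences from RefSeq.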

Additional observations from a re-analysis of the deposited data

Results flagged for a closer look

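FSTL1 was flagged because it moved in opposite directions from the parental level, up in every TalaR-M library and down to 0 in every TalaR-DF library, with 5.21 log2 units between them, a difference that was not tested because it chose the gene. COL1A1 was flagged for the same pattern, with a difference of 4.65 log2 units between TalaR-M and TalaR-DF cells, given with no test because that difference flagged it. FST was flagged because it appeared at 1.30 log2 CPM in TalaR-M replicate 2, at the lowest depth of the 9 libraries, and at 0 in all parental libraries. Outliers were not sought, since groups held 3 libraries.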

How the results depend on the processing

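Alternatives were 1 or 8 CPM added, no filter or a minimum of 5 CPM, median-ratio rescaling, a fit of the 2 groups alone, no trend, array weights, a replicate block and leaving out each library. Over the named genes 1613 of 1747 values kept their call or lack of one, 114 lost the call and 20 gained it. Direction was not part of this count, and small uncalled changes could turn. FSTL3 in TalaR-DF cells went from -0.05 to 0.004 without TalaR-DF replicate 2. With 8 CPM added, genes called fell to 711 (TalaR-M over parental), 426 (TalaR-DF over parental) and 272 (between both resistant groups), and in the pathway lists to 12 and 9 for the last 2. With the 2 groups alone, the counts between the resistant groups were 484, and 9 in the lists. Without 1 library, the counts ran from 1298 to 2045, 983 to 1417 and 578 (without TalaR-DF replicate 3) to 1043, and in the lists from 22 to 33, 13 to 20 and 13 to 20. Without TalaR-M replicate 2, mean levels in TalaR-M cells were 5.57 for FSTL1, 5.44 for FSTL3, 9.46 for SPARC and 7.96 for SPOCK1. Rescaling raised every fold change of TalaR-M cells by 0.11 over parental and by 0.15 over TalaR-DF cells, turned the direction of no named gene, and put SMOC1 in parental cells at 1.48 and SPOCK1 in TalaR-DF cells at 7.96. The causes were not tested. Deviations from the group mean, for libraries with the same replicate number, correlated between -0.42 and 0.22. The TalaR-M mean includes replicate 2, which stood apart, so these values cannot tell whether the numbers pair the libraries. A replicate block gave 1546, 1132 and 750 calls, and 25, 18 and 15 in the lists. Levels below 1 CPM could not be compared at this depth.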
